A study of Mus musculus with 3 samples.

Results

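Expression of 9 genes of 3 vasoactive systems was followed across glomerular cells, out of 32285 genes in the deposited tables. They are the endothelin ligand *Edn1*, the enzyme *Ece1* and the receptors *Ednra* and *Ednrb*, the nitric oxide synthase *Nos3*, and the angiotensin genes *Ren1*, *Ace*, *Agtr1a* and *Enpep*. All 9 members were found by their exact symbol, and each matched 1 row. Glomeruli were isolated by collagenase V digestion and their cells were captured in droplets, giving 1 library each from untreated MRL/lpr mice, from MRL/lpr mice injected with 800000 hUC-MSCs (mesenchymal stem cells from human umbilical cord) and from control mice whose strain the labels do not name, while MRL/MpJ mice were the controls elsewhere in the study. Both MRL/lpr libraries were taken at day 21. MRL/lpr mice carry the *lpr* mutation of *Fas* and develop lupus nephritis (LN). They entered the model group at about 16 weeks, and both MRL/lpr libraries share this background. How many animals went into a library is not given in the sources used here, so strain, disease, treatment, animals and library cannot be told apart, and no test between libraries was made.

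Endothelin-1 is made as a long precursor that the membrane enzyme ECE1 cuts to the active peptide. It contracts vessels through the A receptor on muscle and mesangial cells, while the B receptor on endothelium clears it and drives nitric oxide release. Nitric oxide from NOS3 relaxes the same muscle. Renin from juxtaglomerular cells of the arteriolar wall starts the angiotensin cascade, ACE forms angiotensin II, the AT1a receptor encoded by *Agtr1a* transmits it, and the aminopeptidase A encoded by *Enpep* breaks it down.

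After filters and doublet removal, 12516 untreated MRL/lpr, 14385 treated and 10047 control cells remained, with median depths of 3634, 2726 and 4910 UMIs. Clusters were named from marker genes, and values are given for capillary and arteriolar endothelial-like, mesangial-like, smooth muscle-like, podocyte-like and proximal tubule-like cells, called by the short names below. The smooth muscle class was small, with 46, 45 and 27 cells in the untreated, treated and control library, and includes renin-lineage cells, since *Akr1b7*, a gene of those cells, reached 509 to 1100 CPM (counts of UMIs per 1000000). Podocytes numbered 821, 148 and 2361, and proximal tubule cells 555, 51 and 54. Most capillary, mesangial, podocyte and proximal tubule clusters came mainly from 1 library, so a cluster and its library cannot be told apart there. Each tubule cluster was mainly of untreated cells, and the one led by *Kap* held 132 untreated, 1 treated and 5 control cells. Of the untreated tubule UMIs, that cluster held 24 of 45 for *Edn1* and 43 of 72 for *Ace*. The mesangial cells of untreated, treated and control mice sat mostly in a *Cxcl1*-led, a *Col3a1*-led and an *Sfrp2*-led cluster. The arteriolar cells formed 1 cluster drawn from all libraries, with 515, 616 and 484 cells. *Sox17*, an arterial transcription factor, was at 469 to 569 CPM there against 136 to 201 in capillary cells, but the arterial connexin *Gja5* reached only 11 to 38 CPM and the arterial name rests on *Sox17*, *Fbln5* and their like. The 10 arteriolar markers summed to 1121, 1149 and 1382 CPM there in untreated, treated and control mice, against 680, 648 and 613 CPM in capillary cells. Podocytes held 1856, 1900.0 and 1075 CPM of the same list, mostly *Sema3g* and *Cldn5*, while *Sox17* and *Fbln5* were at most 3.56 CPM in them. The 7 peritubular or venous markers were also higher there, at 322, 348 and 364 CPM against 136, 197 and 186 CPM, with *Plvap* of that list at 235 to 300.3 against 21.6 to 57.7 CPM. An endothelial cluster led by *Sele*, *Selp* and *Aplnr*, with 1584 treated, 185 untreated and 1 control cell, was kept outside the capillary class. Apart from a *Cd300e*-led cluster described below, 2218 untreated (17.7%), 3387 treated (23.5%) and 118 control (1.17%) cells took no class name. They include a cluster with 1010 treated cells and another of 103 untreated cells, both scored highest as mesangial with endothelial second, so the mesangial class leaves out such cells. Pairs of libraries shared 24 to 41 cell barcodes, where 18.5 to 26.5 would be shared by independent draws from all barcodes listed.

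Levels are UMIs of a gene per 1000000 UMIs of the class, with exact 95% Poisson intervals. A ratio between libraries or classes carries an exact conditional binomial interval. These intervals cover counting error only. A ratio was counted as past 2-fold when it reached 2-fold either way with an interval that excluded equality, for genes with at least 20 UMIs over both sides. Levels are compared between cells and not between genes, because they were not scaled by length.

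**Figure D1:**
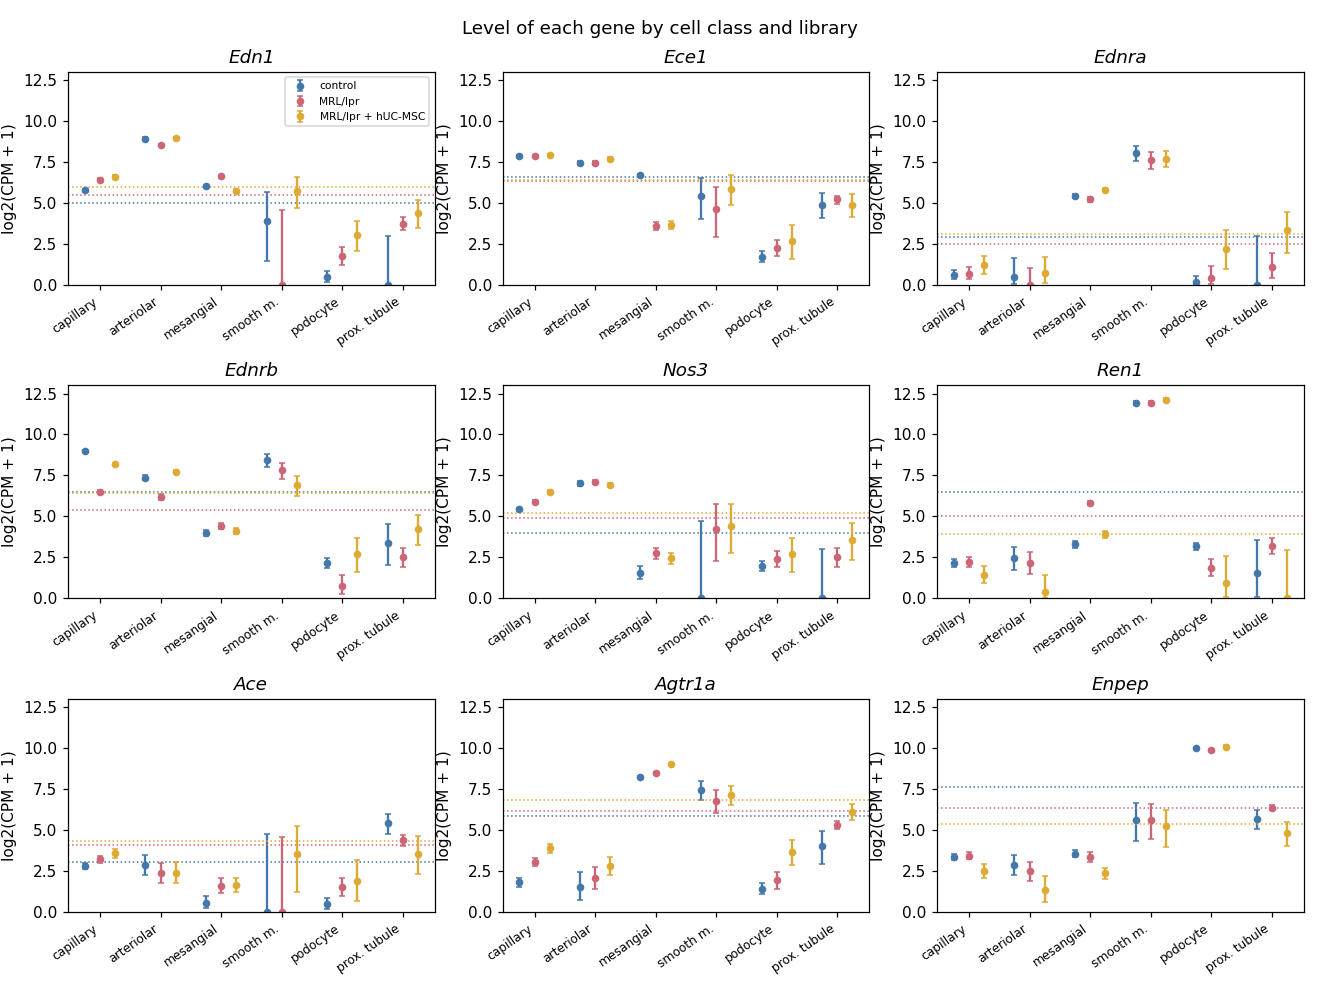
Each panel plots 1 gene, with log2(CPM + 1) on the vertical axis, the 6 cell classes on the horizontal axis, points for the 3 libraries and bars for 95% Poisson intervals. Dotted lines mark the level in empty droplets of the same library. *Edn1* stood highest in arteriolar cells, *Ren1* in smooth muscle cells and *Enpep* in podocytes in all 3 libraries.

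The ligand *Edn1* (chr13:42301476-42307990, + strand, GRCm38) was highest in arteriolar endothelium in every library. Its level there was 484 CPM in control, 366 CPM in untreated and 502 CPM in treated mice. In capillary cells it was 52.8, 84.4 and 95.6 CPM in the same order. All 3 arteriolar values therefore lay above all 3 capillary values, and above the 30.9 to 62.1 CPM of empty droplets. Arteriolar exceeded capillary *Edn1* by 3.20 on the log2 scale in control mice (95% interval 3.09 to 3.31), by 2.12 in untreated mice (2.00 to 2.23) and by 2.39 in treated mice (2.26 to 2.52). The members were left out of the genes used for clustering, but *Edn1* was still among the 10 leading genes of the arteriolar cluster, so this is a description of that cluster.

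After each cell was thinned to 1000 UMIs, 30.6% of control arteriolar cells, 28.3% of untreated and 33.1% of treated ones held an *Edn1* UMI. Without thinning the shares were 57.4%, 58.8% and 61.5%, at median depths of 3766, 5375 and 4165 UMIs. Erythroid-like cells, led by hemoglobin genes and taken as cells without the ligand, held one in 0.216% to 0.541% of thinned cells and in 1.94% to 2.70% of unthinned cells, at median depths of 2570 to 5306 UMIs. Of their *Edn1* UMIs, 8 of 9 in control and 7 of 13 in untreated mice lay in a cluster whose second class was endothelial. Podocytes held one in 0.0424% to 0.676% of thinned cells and in 0.254% to 5.41% of unthinned cells, at 6668 to 7204 UMIs. The top 10% of arteriolar cells carried 51.5%, 45.1% and 46.4% of the class's *Edn1* UMIs in control, untreated and treated mice.

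Mesangial cells also held *Edn1*, at 63.0 CPM in control, 97.2 CPM in untreated and 52.6 CPM in treated mice. The treated value lay below treated capillary cells and below the 62.1 CPM of treated empty droplets. The untreated library was the high one of the mesangial values. It exceeded control by 0.63 on the log2 scale (0.49 to 0.76), and treated mice lay below untreated by 0.88 (difference -0.88, -1.04 to -0.73), so neither difference reached 2-fold.

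The first 250 bases before the RefSeq start of *Edn1* (chr13:42301226-42301475, GRCm38.p6, + strand) and of *Ren1* (chr1:133350424-133350673, + strand) are shown because these genes encode the ligand and the first enzyme from which the endothelin and angiotensin pathways start. Capitals mark the TATA letters TATAAA where found on either strand.
Edn1: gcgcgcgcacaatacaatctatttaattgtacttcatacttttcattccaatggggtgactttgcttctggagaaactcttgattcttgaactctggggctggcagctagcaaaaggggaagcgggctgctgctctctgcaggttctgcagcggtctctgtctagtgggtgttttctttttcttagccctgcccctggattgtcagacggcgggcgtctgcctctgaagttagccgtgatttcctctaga
Ren1: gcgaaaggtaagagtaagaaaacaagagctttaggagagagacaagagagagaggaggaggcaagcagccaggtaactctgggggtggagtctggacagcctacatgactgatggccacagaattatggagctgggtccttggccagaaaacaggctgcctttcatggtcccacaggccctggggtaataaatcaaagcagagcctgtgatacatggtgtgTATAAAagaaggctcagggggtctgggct
The *Ren1* window held TATAAA beginning 29 bases before the start, and these letters occur on either strand in 12.4% of all 32851 promoters of the same length. The *Edn1* window did not hold them. It did not hold AGATAA, the letters of a GATA site found in 9.99% of promoters, nor the AP-1-like letters TGACTAA found in 2.01%, nor the GC box letters GGGCGG found in 32.7%, on either strand. Promoters were found for 7 of the 9 members, with the first listed start used for *Ece1* and *Ace*. *Nos3* and *Agtr1a* had no entry.

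*Ece1* (chr4:137862237-137965229, + strand), which activates the ligand, was an endothelial gene with a mesangial difference between libraries. Capillary cells held 234 CPM in control, 231 CPM in untreated and 241 CPM in treated mice, values that barely moved. Arteriolar cells held 173, 174 and 206 CPM. Mesangial cells held 102 CPM in control mice but 11.03 CPM in untreated and 11.6 CPM in treated mice. Both MRL/lpr libraries were thus far below control. Untreated over control was -3.21 on the log2 scale (-3.52 to -2.91), and treated over untreated was 0.07 (-0.32 to 0.46). A mesangial cell held an *Ece1* UMI in 9.56% of thinned control cells, against 1.28% and 1.41% in the untreated and treated library. Erythroid-like cells held one in 0.870% to 2.16% of thinned cells. Of their *Ece1* UMIs, 86 of 96 in control and 20 of 25 in untreated mice lay in a cluster whose second class was endothelial. The other erythroid-like cluster held 5.31, 4.67 and 13.3 CPM of *Ece1* in control, untreated and treated mice. Empty droplets held 94.3, 78.1 and 82.0 CPM in control, untreated and treated mice, so both MRL/lpr mesangial values lay below them.

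The size of the mesangial *Ece1* difference depended on which cells were classed as mesangial. Over the alternatives it ran from -4.63 to -0.55, and it was under 2-fold only with 10 principal components. The same alternatives gave treated over untreated values from -1.94 to 1.70, so no direction is given for the treated library. Within the *Col3a1*-led cluster, 26 control cells held 126.6 CPM and 175 untreated cells held 6.7 CPM, the first resting on 7 UMIs. In the unnamed clusters scored highest as mesangial, 103 untreated cells held 118 CPM of *Ece1* and 1010 treated cells held 78.2 CPM.

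The A receptor *Ednra* (chr8:77663031-77724464, - strand) marked contractile cells. Smooth muscle held 260 CPM in control, 192 CPM in untreated and 206 CPM in treated mice, and mesangial cells held 41.3, 36.5 and 54.9 CPM. Smooth muscle lay above mesangial cells in each library, by 2.65, 2.40 and 1.90 on the log2 scale. Capillary and arteriolar endothelium held at most 1.24 CPM, below the 4.5 to 7.7 CPM of empty droplets. Mesangial cells still carried 70.2% to 91.1% of a library's *Ednra* UMIs, since they outnumbered smooth muscle cells.

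The B receptor *Ednrb* (chr14:103814625-103844402, - strand) showed the largest endothelial difference between libraries among member ratios with at least 20 UMIs over both sides. Capillary cells held 512 CPM in control, 90.1 CPM in untreated and 295 CPM in treated mice. The treated value lay between the others, and no 2 of the intervals met. Untreated over control was -2.51 on the log2 scale (-2.59 to -2.43) and treated over untreated was 1.71 (1.61 to 1.81). These ratios share the untreated library, so they are not independent of each other. Arteriolar cells held 164, 71.1 and 211 CPM in control, untreated and treated mice, again lowest in the untreated library. The arteriolar ratios were -1.20 (-1.43 to -0.98) and 1.57 (1.36 to 1.78). Over the alternatives the first ran from -2.59 to -0.82, short of 2-fold at resolution 1.0, and the second from 1.502 to 2.65.

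The same order appeared inside the capillary class. The 3 large control clusters held 459.9, 539.1 and 559.6 CPM of *Ednrb*. In the cluster led by untreated cells, 25 control cells held 323.8 CPM, 175 treated cells 271.4 CPM and 3026 untreated cells 88.2 CPM. Thinned shares of capillary cells with a UMI were 35.03%, 7.37% and 20.8% in control, untreated and treated mice, and unthinned shares were 72.6%, 23.3% and 40.0%. Podocytes held one in at most 0.381% of thinned cells. In the endothelial cluster kept outside the class, *Ednrb* was at 104 CPM in untreated and 302 CPM in treated cells. Empty droplets held 89.5, 41.3 and 84.5 CPM in control, untreated and treated mice, so the free RNA was also lowest in the untreated library, and the capillary ratio stayed between -2.79 and -2.48 over the alternatives, subtraction of free RNA included.

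Smooth muscle cells held *Ednrb* beside *Ednra*, at 342 CPM in control, 222 CPM in untreated and 118 CPM in treated mice. These rest on 50, 37 and 23 UMIs. Neither ratio was past 2-fold, with untreated over control at -0.62 (-1.27 to 0.02) and treated over untreated at -0.91 (-1.73 to -0.12). Both receptors were seen in 13 of 27 control, 9 of 46 untreated and 7 of 45 treated cells.

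**Figure D2:**
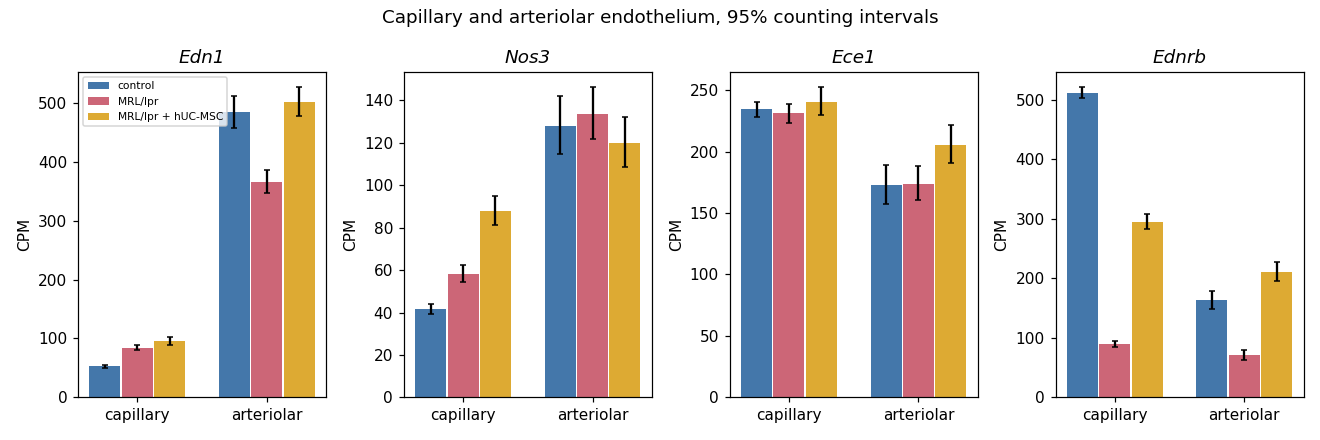
Bars give CPM of *Edn1*, *Nos3*, *Ece1* and *Ednrb* in capillary and arteriolar endothelium for each library, with 95% Poisson intervals. *Edn1* was 366 to 502 CPM in arteriolar against 52.8 to 95.6 CPM in capillary cells, while *Ednrb* was lowest in untreated MRL/lpr mice in both.

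*Nos3* (chr5:24364810-24384474, + strand), the synthase of nitric oxide in endothelium, was also higher in arteriolar cells. It stood at 128 CPM in control, 134 CPM in untreated and 120 CPM in treated arteriolar cells, and neither ratio between neighbouring groups had an interval that excluded equality. Capillary cells held 41.6, 58.3 and 87.9 CPM, lowest in control and highest in treated mice. Arteriolar over capillary was 1.62 on the log2 scale in control (1.44 to 1.80) and 1.20 in untreated mice (1.03 to 1.36), and it was 0.45 in treated mice (0.26 to 0.63), short of 2-fold. Whether the gap differs between libraries was not tested. Capillary *Nos3* rose with its level in empty droplets, which was 14.5, 28.8 and 35.5 CPM, and the part of free RNA in that order was not tested. Mesangial cells held 1.94 to 5.62 CPM, below empty droplets in each library, and smooth muscle cells held 0 to 4 UMIs. Among arteriolar cells, 110 of 484 control, 164 of 515 untreated and 144 of 616 treated cells held UMIs of both *Edn1* and *Nos3*.

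*Ren1* (chr1:133350510-133360325, + strand), the start of the angiotensin cascade, was highest in smooth muscle cells and concentrated in few of them. Smooth muscle cells held 3853 CPM in control, 3850 CPM in untreated and 4458 CPM in treated mice. Untreated over control was under 0.01 in size on the log2 scale and treated over untreated was 0.21 (0.06 to 0.36). The 27 to 46 cells of this class carried 60.4%, 46.6% and 78.8% of all *Ren1* UMIs in the cells of the control, untreated and treated library. Within it, 7, 9 and 11 cells with at least 10 UMIs carried 95.6%, 91.7% and 95.8%. The highest cell held 318, 184 and 359 UMIs. Some mouse strains have a near-identical second renin gene, *Ren2*, whose reads could be counted here, so the *Ren1* level is uncertain between strains.

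Mesangial cells held *Ren1* at 8.70 CPM in control, 56.0 CPM in untreated and 14.0 CPM in treated mice. The untreated library was high, at 2.69 on the log2 scale over control (2.40 to 2.98), and treated over untreated was -2.00 (-2.27 to -1.73). Untreated mesangial cells held 508 *Ren1* UMIs, against 641 in smooth muscle cells of that library. In untreated mice, 11 of 1642 mesangial cells held 54.7% of those 508 UMIs, and 6.82% of mesangial cells held any. Empty droplets held 88.4 CPM in control, 31.2 CPM in untreated and 13.8 CPM in treated mice, falling from control to untreated where mesangial *Ren1* was higher, and from untreated to treated as mesangial *Ren1* did. The 9 smooth muscle markers in mesangial cells summed to 164, 363 and 775 CPM in control, untreated and treated mice, higher in untreated than control as *Ren1* was, and higher still in treated mice, where *Ren1* was lower. The part of free RNA or of smooth muscle cells in these values was not tested. With at most 3000 genes per cell the first ratio was 0.46 and no longer past 2-fold, and with 10 principal components the second was -0.24. In podocytes a single control cell with 96 UMIs held 73.3% of the 131 *Ren1* UMIs, so the lower untreated podocyte value of 2.61 CPM against 7.99 CPM rests on 1 cell.

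**Figure D3:**
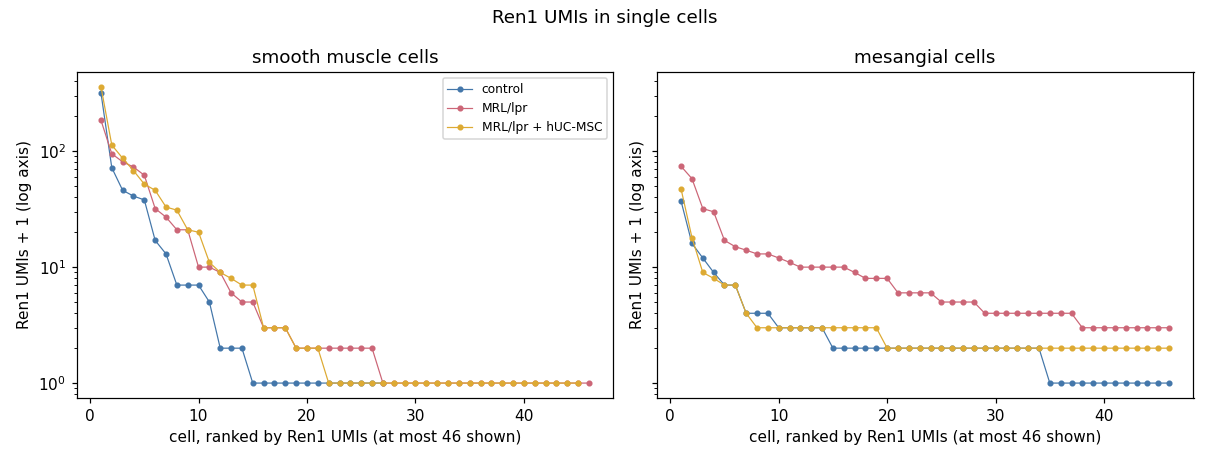
Each point is 1 cell, ranked by its *Ren1* UMIs on the horizontal axis, with UMIs + 1 on a log vertical axis, for smooth muscle cells (left) and the 46 highest mesangial cells (right) of each library. A few smooth muscle cells reached 184 to 359 UMIs, and untreated MRL/lpr mesangial cells lay above those of the other libraries.

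*Ace* (chr11:105967945-105989964, + strand), which forms angiotensin II, was low in all 6 classes. Proximal tubule cells, whose brush border is known to carry ACE, held 41.4 CPM in control, 19.5 CPM in untreated and 10.6 CPM in treated mice, on 22, 72 and 6 UMIs. Capillary cells held 5.96, 8.11 and 10.7 CPM, and each of these was below the level in empty droplets of its library, which ran from 7.1 to 18.6 CPM. The class order in treated mice is not resolved, with capillary over tubule at 0.01 (-1.17 to 1.503). In both MRL/lpr libraries most *Ace* lay in a leukocyte cluster without a class name, led by *Marco* and *Cd300e*. It held 381 CPM in control, 251 CPM in untreated and 159 CPM in treated mice, and 31.3%, 63.3% and 63.6% of each library's *Ace* UMIs, while capillary cells held the larger share in control. The number of its cells differed widely, at 79, 1119 and 1868. Thinned cells of that cluster held an *Ace* UMI in 27.8%, 21.1% and 14.6%.

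The receptor *Agtr1a* (chr13:30336441-30382867, + strand) was highest in mesangial cells, at 298 CPM in control, 349 CPM in untreated and 527 CPM in treated mice. Treated mice were highest, with treated over untreated at 0.60 on the log2 scale (0.53 to 0.66) and untreated over control at 0.23 (0.16 to 0.30), neither past 2-fold. Smooth muscle held 171, 108 and 139 CPM. Mesangial cells carried 69.6% to 96.3% of a library's *Agtr1a* UMIs. In the unnamed clusters scored highest as mesangial, 103 untreated cells held 360 CPM and 1010 treated cells held 338 CPM. Thinned mesangial cells held one in 24.3%, 26.4% and 38.5%, and unthinned ones in 79.8%, 65.1% and 80.8%, at median depths of 8194, 3655 and 4694 UMIs. Podocytes held one in at most 1.35% of thinned cells. Capillary cells held 2.44, 7.06 and 13.6 CPM, rising in the order of the empty droplets, at 57.0, 70.5 and 111 CPM, and capillary untreated over control was past 2-fold at 1.54 (1.07 to 2.01). The 14 mesangial markers in capillary cells were at 270.2, 588 and 549.5 CPM in the same order, and their part in the capillary values was not tested.

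*Enpep* (chr3:129269175-129332720, - strand), which degrades angiotensin II, was a podocyte gene in all libraries. Podocytes held 999 CPM in control, 947 CPM in untreated and 1079 CPM in treated mice. The values were close, with untreated over control at -0.08 (-0.12 to -0.03) and treated over untreated at 0.19 (0.10 to 0.28). Thinned podocytes held a UMI in 62.8%, 62.0% and 68.9%. Proximal tubule cells, also known for this enzyme, held 48.9, 80.8 and 26.6 CPM, none above the 195, 80.9 and 39.7 CPM of empty droplets. The lower treated values of *Enpep* in capillary, arteriolar, mesangial and tubule cells, all past 2-fold, went with a fall in empty droplets from 195 CPM in control to 80.9 and 39.7 CPM in untreated and treated mice. The part of free RNA in these values was not tested beyond its subtraction. Subtraction left no arteriolar *Enpep* UMIs in either library, so the arteriolar value of 0.0592 sets 3 counts against 3 and measures no difference. The mesangial ratio was then -0.78. Over all alternatives, the mesangial ratio was short of 2-fold in 10 of 16 and the capillary one in 4 of 16. The arteriolar ratio was short of it in 3 of 13 and the tubule one in 1 of 16.

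Across all member and class pairs with enough UMIs, 13 of 43 ratios of untreated MRL/lpr over control were past 2-fold, 7 higher and 6 lower. Among all genes, 15.4% were past 2-fold in capillary, 10.3% in arteriolar, 15.2% in mesangial, 11.8% in smooth muscle, 14.2% in podocyte and 12.2% in proximal tubule cells. Beside the ratios named above, those past 2-fold were *Nos3* (1.53) and *Ace* (2.20) in mesangial cells, *Edn1* (2.64) and *Ednrb* (-2.39) in podocytes, and *Ace* (-1.08) and *Agtr1a* (1.33) in proximal tubule cells. Over 16 alternatives tubule *Ace* ran from -1.32 to 2.38, so its direction turned, and tubule *Agtr1a* from 0.80 to 2.48, and each was short of 2-fold or turned in 3 of them. Mesangial *Ace*, at 1.99 against 0.43 CPM, lay below empty droplets, and the 9 macrophage markers moved with it in mesangial cells, at 48.6 against 5.18 CPM. Tubule *Agtr1a*, at 37.9 against 15.05 CPM, and podocyte *Edn1*, at 2.29 against 0.37 CPM, also lay below empty droplets, as did podocyte *Ednrb*, at 0.65 against 3.42 CPM. The mesangial markers in tubule cells were at 388 against 52.7 CPM, moving with *Agtr1a*. In podocytes the endothelial lists were split. The capillary markers, at 1243 against 2471 CPM, and the venous ones, at 100 against 183 CPM, moved with *Ednrb*. The 6 endothelial markers, at 80.7 against 34.6 CPM, and the arteriolar ones, at 1856 against 1075 CPM, moved against it. Podocyte *Edn1* ran from 0.51 to 2.72 over 14 alternatives, 3 of them short of 2-fold, and podocyte *Ednrb* from -2.79 to -0.15 over 16, with 1 short of it. The part of these markers and of free RNA in the values was not tested. The median log2 ratio of the members tested ran from -0.53 to 0.72 over the 6 classes, where that of all genes ran from -0.08 to 0.24. *Edn1* in tubule cells had 45 UMIs against 0. Its ratio was 2.16-fold only with the 0 set to 3 counts over the class, and its counting interval began at 0.75 on the log2 scale. Over the alternatives this log2 ratio ran from 0.14 to 3.76, and 3 of 14 were short of 2-fold. Untreated tubule *Edn1*, at 12.2 CPM, lay below the 42.7 CPM of empty droplets. The 6 endothelial markers in tubule cells were at 196 against 143 CPM, and their part was not tested. Apart from the tubule values of *Ace* and *Agtr1a* and the podocyte value of *Ednrb*, the ratios listed here had at most 51 UMIs on the higher side.

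For treated over untreated mice, 11 of 41 member ratios were past 2-fold, 5 higher and 6 lower. Among all genes the share was 9.55% in capillary, 4.47% in arteriolar, 9.37% in mesangial, 7.13% in smooth muscle, 4.97% in podocyte and 6.82% in proximal tubule cells. The members' medians ran from -0.31 to 0.51, and those of all genes from -0.16 to 0.17. Higher were *Ednrb* in capillary, arteriolar and tubule cells, the last at 1.95 on 10 and 17 UMIs, and *Edn1* (1.64) and *Agtr1a* (2.06) in podocytes. Podocyte *Edn1* rests on 8 and 14 UMIs and ran from -0.02 to 2.75 over 14 alternatives, turning without doublet removal. Podocyte *Agtr1a*, on 13 and 17 UMIs, was at 11.6 against 2.78 CPM, below empty droplets, and the mesangial markers there were at 272 against 152 CPM. In tubule cells the 6 endothelial markers were at 357 against 196 CPM, moving with *Ednrb*, which also lay below empty droplets. Their part was not tested. Lower were *Ren1* in capillary and mesangial cells and *Enpep* in 4 classes. Capillary *Ren1*, on 12 and 55 UMIs, was at 1.65 against 3.60 CPM, below empty droplets at 13.8 against 31.2 CPM. That ratio was short of 2-fold in 4 of 16 alternatives, and the part of free RNA in it was not tested. For arteriolar over capillary endothelium, 11 of 23 ratios were past 2-fold, where 9.59% of all genes were in control, 8.32% in untreated and 9.18% in treated mice. *Edn1* was higher in 3 of 3 libraries and *Nos3* in 2, and *Ednrb* was lower in control mice (-1.65). *Agtr1a* (-1.19 and -1.19) and *Enpep* (-1.10 and -1.61) were lower in untreated and treated mice, and *Ace* (-1.36) in treated mice, on 5 to 20 arteriolar UMIs each. These were not stable. *Agtr1a* reached 0.91 and 0.02 and *Enpep* -0.0035 and 0.46 over the alternatives in untreated and treated mice. For each, 5 to 7 of 13 to 15 alternatives were short of 2-fold. The 0.91 and 0.46 came with free RNA subtracted, which left no arteriolar UMIs of the gene. Both were set by the 3 counts that stand in for an empty class, so no higher arteriolar level was measured. The members' medians were -0.49 to -0.16 against -0.17 to -0.05 for all genes.

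**Figure D4:**
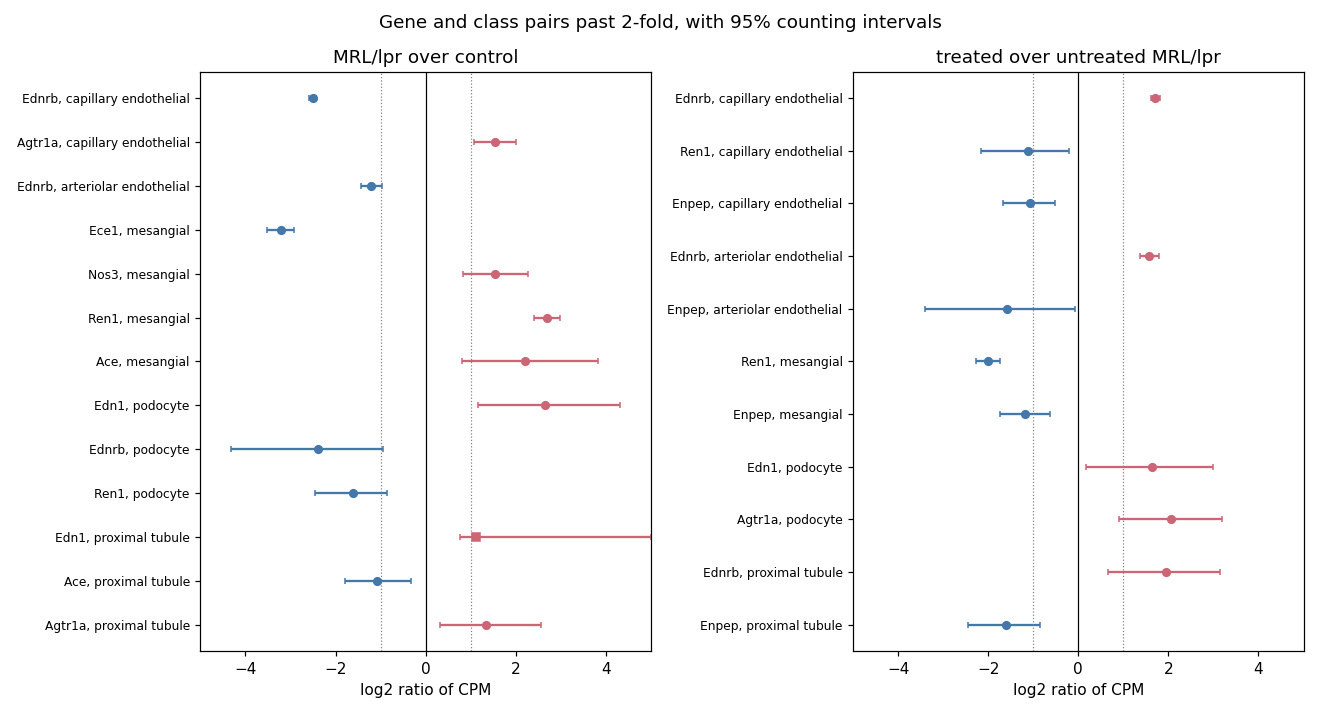
Points are log2 ratios of CPM for each gene and class past 2-fold, with 95% conditional binomial intervals, untreated MRL/lpr over control on the left and treated over untreated on the right. The square marks a ratio set against 0 UMIs, and its bar and any other leaving the axis are cut at 5. Capillary *Ednrb* lay at -2.51 on the left and 1.71 on the right.

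The list of 33 other genes of these pathways held 24 of 114 ratios past 2-fold for untreated over control, 12 of 109 for treated over untreated and 14 of 65 for arteriolar over capillary cells. Of these, 17, 6 and 2 were higher and 7, 6 and 12 lower, and the shares of all genes are those given above. In mesangial cells, *Gucy1a1*, a subunit of the nitric oxide receptor guanylate cyclase, was at 473 CPM in control and 213 CPM in untreated mice (log2 ratio -1.15). *Ass1*, which regenerates arginine for nitric oxide synthesis, was at 7.55 CPM in control, 30.1 CPM in untreated and 7.79 CPM in treated mesangial cells. It is also a proximal tubule gene here, at 1549 to 3493 CPM in those cells, and the 9 tubule markers in mesangial cells moved with it, at 18.8, 176.7 and 30.7 CPM. Empty droplets held 119, 218 and 96.7 CPM of *Ass1*, above the mesangial level in each library. *Nostrin*, which traffics NOS3, ran against *Nos3* in endothelium, with arteriolar over capillary ratios of -1.45, -1.47 and -1.38 in control, untreated and treated mice. *Prkg1*, the kinase activated by cyclic GMP, was lower in arteriolar than capillary cells within the untreated (-1.03) and the treated (-1.34) MRL/lpr library. Its arteriolar levels there, 173 and 189 CPM, lay below the 274 and 322 CPM of empty droplets. *Ddah1*, which clears an inhibitor of nitric oxide synthases, was higher in untreated than control podocytes (1.71), at 37.8 against 11.5 CPM. Both values lay below the 48.6 and 39.5 CPM of empty droplets. The tubule markers in those podocytes were at 126 against 23.0 CPM, and their part was not tested. *Nos2*, the inducible synthase, was higher in untreated than control capillary cells (1.23), at 13.9 against 5.92 CPM. *Prkg1* was also higher in untreated than control tubule cells (1.28), on 286 and 17 UMIs. These levels, 77.5 and 32.0 CPM, lay below the 274 and 310 CPM of empty droplets. The mesangial markers in tubule cells were at 388 against 52.7 CPM, and their part was not tested. *Nosip*, which binds NOS3, was lower in untreated than control arteriolar cells (-1.21), at 39.9 against 92.2 CPM. The arginine transporter *Slc7a1* was higher in arteriolar than capillary cells of control mice (1.16). Treated over untreated capillary cells were higher for the peptidases *Prcp* (1.17) and *Anpep* (1.76). Both lay below empty droplets, which held 23.9 CPM of *Prcp* and 7.64 CPM of *Anpep* in untreated against 38.4 and 21.4 CPM in treated mice, and the 9 macrophage markers in capillary cells were at 70.3 against 132 CPM. Their part was not tested. Mesangial *Nostrin* was at 225 CPM in treated and 452 CPM in untreated mice. *Ass1* in podocytes had 1 UMI in treated against 109 in untreated mice (-4.32, -9.64 to -1.81). The tubule markers in podocytes moved with it, at 23.1 against 126 CPM, and the part of tubule or free RNA in these *Ass1* values was not tested. The arginase *Arg2* in tubule cells had 1 UMI in treated against 71 in untreated mice (-3.44, -8.76 to -0.91). These levels, 1.77 and 19.2 CPM, lay below the 54.4 and 42.0 CPM of empty droplets. The 5 neutrophil markers in tubule cells were at 17.7 against 184 CPM, and their part was not tested.

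Over 37 groups of class and library with at least 20 cells, the genes whose log2(CPM + 1) followed a member most closely, by Pearson correlation among 15593 genes, were as follows. *Edn1* was followed by *Plvap*, *Myct1* and *Fbln5* (0.89, 0.88 and 0.86). *Ednra* was followed by *Kcnmb1*, *Pi15* and *Ppp1r14a* (0.96, 0.96 and 0.95). *Ece1* was followed by *Cyyr1*, *Arhgap31* and *Sema6a*, and *Nos3* by *Tmem44*, *Serpina1b* and *Efr3b*. *Ren1* was followed by *Akr1b7*, *Myocd* and *4933431K23Rik*, *Agtr1a* by *Col8a1*, *P2rx1* and *Epha3*, *Enpep* by *Tcf21*, *Nphs1* and *Magi2*, and *Ace* by *Cd36*, *Dpys* and *Gm13919*. By Spearman correlation, 2 of the 3 genes were shared for *Edn1*, 1 for *Ece1*, *Nos3*, *Ren1*, *Agtr1a* and *Enpep*, and 0 for *Ednra* and *Ace*. The groups share libraries and depth, so these are descriptions.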

How the data were processed

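Each of the 3 groups gave 1 droplet library of glomerular cells. The deposited values are UMI counts per gene and barcode, made by the authors with Cell Ranger before cells were called. The file headers name Cell Ranger version 4, while the labels' protocol names 1.1.0, and the submitters' notes list mm10 and STAR. The libraries held 90812138 to 103319588 UMIs. About 8000 cells were stated as captured. Keeping 200 to 3000 genes and up to 10% mitochondrial UMIs, as stated, left 9914 to 50876 barcodes, and the stated 5% limit on ribosomal UMIs left 765 to 1156, so it was not applied.

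Barcodes with at least 1000 UMIs and at most 10% mitochondrial UMIs were kept. Scrublet scores removed 0.8% of barcodes per 1000 as doublets, which came to 8.81% to 13.3% of a library. Cells were clustered in scanpy 1.11.5 (Python 3.11.15) from 2000 variable genes, 30 principal components, 15 neighbours and Leiden resolution 2.0, giving 39 clusters. The variable genes were chosen without the 9 members, the 33 other pathway genes and the mitochondrial and ribosomal protein genes. A cluster took the class of its highest marker score, with at least 3 markers found in 10% of cells and 2-fold above the rest. The limits on the score and its gap to the next class were set after the clusters were seen. Barcodes holding 1 to 100 UMIs gave the profile of free RNA (empty droplets). A class at 0 UMIs was set to 3 counts over the class in a ratio, and intervals are at 95%. The ratio code was tested on simulated data. Positions are from GENCODE M21, which held all 9 gene IDs, and promoters from RefSeq, GRCm38.p6.

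The members, pathway list and markers were chosen with earlier results of these data known. Of the other pathway genes, those past 2-fold were named, at most 6 a comparison, by the UMIs of the higher side. For each member the 3 most correlated genes were named among genes with at least 100 UMIs, and those of *Ednrb* are not reported here. The alternatives changed cell filters, doublet removal, clustering, class naming, free RNA, centring and the minimum of UMIs.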

Additional observations from a re-analysis of the deposited data

Results flagged for a closer look

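Members past 2-fold in opposite directions in 2 cell classes of the same comparison were set aside. *Ren1* in untreated MRL/lpr over control mice was 2.69 on the log2 scale in mesangial cells and -1.61 in podocytes, where 1 control cell held 73.3% of the 131 control UMIs. *Ace* in the same comparison was 2.20 in mesangial cells, on 18 and 6 UMIs and below empty droplets, and -1.08 in proximal tubule cells, a value that ran from -1.32 to 2.38 over the alternatives. With 1 library per group, neither difference was tested.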

How the results depend on the processing

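Of the 35 member ratios past 2-fold, the 16 alternatives turned the direction of a value 6 times. Those no longer past 2-fold were 9 of 35 with mitochondrial UMIs up to 20%, with cells classed by their own marker score and with free RNA subtracted, 9 of 28 with at most 3000 genes, 7 without doublet removal, 6 of 33 at resolution 1.0, 6 with a minimum of 500 UMIs, 4 of 31 with each library alone, 4 of 20 with 10 principal components, 4 with a minimum of 2000 UMIs, and 3 or fewer under the others. *Ace* in tubule cells, untreated over control, was 2.38 with at most 3000 genes. *Edn1* in podocytes, treated over untreated, was -0.0196 without doublet removal. Arteriolar over capillary *Agtr1a* was 0.0181 in treated mice at resolution 1.0. With free RNA subtracted, treated over untreated arteriolar *Enpep* was 0.0592, and arteriolar over capillary *Agtr1a* in untreated mice was 0.91 and *Enpep* in treated mice 0.46. These are 3 of the 6 turns. In each of them subtraction left no arteriolar UMIs, so the value rests on the 3 counts set for an empty class and no turn was measured. The count of member ratios past 2-fold for untreated over control was 8 with at most 3000 genes. For treated over untreated it was 17 with 10 principal components, 20 with each library clustered alone and 7 with at least 50 UMIs. For arteriolar over capillary it was 7 at resolution 1.0, with each library alone and with cells classed by their own marker score, and 0 with 10 principal components, where no arteriolar class was found. The class was also absent from the control library when each library was clustered alone. Among the other pathway genes, treated over untreated gave 25 with a minimum of 500 UMIs, 33 with each library alone, 19 with cells classed by their own score and 19 with free RNA subtracted, and arteriolar over capillary gave 8 with each library alone and 0 with 10 principal components. The share of all genes past 2-fold under each of these settings is not given here, so the counts are not read as results about the genes. Causes were not tested. The class with the highest level was the same in 19 to 26 of 27 member and library pairs over the alternatives that reclass cells. Centring on the median of all genes took 1 of the 35 ratios, that of *Edn1* in tubule cells, under 2-fold (0.87). Counting the *Selp* and *Aplnr* cluster as capillary, an alternative chosen after seeing the data, also took 1 under 2-fold, an arteriolar over capillary value of *Agtr1a* (-0.91). No paired analysis was possible because each group has 1 library. Values under about 20 UMIs are limited by depth.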

Other observations

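*Ace* was also found in neutrophil-like cells, at 113 CPM in untreated and 54.5 CPM in treated MRL/lpr mice, on 101 and 29 UMIs, and the control library held only 23 such cells with 1 UMI. A cluster led by *Ngp* and *Camp*, with 80 untreated and 48 treated cells, held 99 and 27 of these UMIs. The other neutrophil-like cluster, led by *Retnlg* and *S100a8*, held 2 in each of these libraries, in 213 and 156 cells.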
